A study of Homo sapiens with 3 samples.

Results

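The caudal homeobox genes CDX1, CDX2 and CDX4 were measured together with the intestinal transcription factors HNF4A, HNF4G, GATA6, KLF4 and KLF5 upon expression of mouse Cdx1 or Cdx2 in human colon cancer cells. Members were the probes whose symbol in the platform's probe-to-gene table, brought to current names, was that of 1 of these 8 genes. Of 24460 gene probes on the array, 7 qualified, 1 each for 7 of the 8 genes. No probe carried the symbol HNF4A in the table used here, and HNF4A expression was not analysed. Each of the 7 probes was brighter than the blank spots in both dyes on all 3 arrays, and none was saturated, so all 7 were tested.

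The cells were single-cell clones of DLD1-TetOff, a human colorectal adenocarcinoma line in which a tetracycline-controlled activator switches on a FLAG-tagged mouse wild-type transgene once doxycycline (DOX) is withdrawn. Each of the 3 2-colour arrays set the RNA of induced cells against RNA of the matching non-induced culture. The groups were induced against non-induced Cdx1 cells at 12 h, induced against non-induced Cdx1 cells at 24 h, and induced against non-induced Cdx2 cells at 24 h, with 1 array each. Non-induced cells carried the same plasmids and were kept in 0.5 µg/mL DOX. DOX withdrawal and transgene expression therefore cannot be told apart here, and neither can homeoprotein and clone. Nothing in the labels says that cultures were repeated, so errors over the 3 arrays measure the spread between these 3 sets of cells. The Cdx1 sets at 12 h and 24 h carry the same transgene, yet the errors and p-values below treat all 3 sets as independent.

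Values are log2 ratios of Cy3 over Cy5 after background correction and loess normalization within each array, where 1 is a 2-fold difference. Induced RNA is placed in Cy3 by the array titles, by the source name given for each dye and by the study's legend, so positive values are read as higher in induced cells. The characteristics listed for the 2 dyes say the reverse, and dyes were never swapped. The direction is thus likely and not certain, and every sign below would turn if those characteristics were correct. Without a dye swap, a dye difference specific to a probe would also recur on every array. Such a dye difference and induction cannot be told apart in a ratio or in its mean over the arrays.

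As background, CDX1 and CDX2 are homeodomain proteins that specify intestinal epithelium and bind A/T-rich DNA, and CDX4 is their paralog, known mainly from posterior patterning of the embryo. HNF4A and HNF4G are nuclear receptors that act with CDX2 on enterocyte genes such as those of the brush border. GATA6 is a zinc finger factor of proliferating and differentiating gut epithelium. KLF5 and KLF4 are related Krüppel-like zinc finger factors with opposite places in the epithelium, KLF5 being found mainly in proliferating crypt cells and KLF4 in differentiated cells and goblet cells.

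The 250 bases before the RefSeq start of the members whose ratios are followed below are shown here, because they hold the DNA in which a CDX core motif could be looked for. RefSeq promoters (GRCh38.p14) were searched for 6 of the 8 genes. CDX1 had no entry among those used here, and HNF4G was not searched. Capitals mark the CDX core motif TTTAT, or ATAAA where it lies on the opposite strand.
CDX2, chr13:27969316-27969565, minus strand: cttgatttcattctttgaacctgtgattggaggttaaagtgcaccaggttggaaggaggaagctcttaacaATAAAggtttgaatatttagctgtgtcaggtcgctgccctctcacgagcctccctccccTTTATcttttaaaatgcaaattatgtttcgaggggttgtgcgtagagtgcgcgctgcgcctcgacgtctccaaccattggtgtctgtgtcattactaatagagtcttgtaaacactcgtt
GATA6, chr18:22169339-22169588, plus strand: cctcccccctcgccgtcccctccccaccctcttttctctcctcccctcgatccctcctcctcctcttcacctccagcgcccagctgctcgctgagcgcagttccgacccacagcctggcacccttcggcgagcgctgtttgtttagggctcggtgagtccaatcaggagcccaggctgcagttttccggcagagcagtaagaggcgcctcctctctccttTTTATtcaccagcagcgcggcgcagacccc
KLF5 upstream start, chr13:73054726-73054975, plus strand: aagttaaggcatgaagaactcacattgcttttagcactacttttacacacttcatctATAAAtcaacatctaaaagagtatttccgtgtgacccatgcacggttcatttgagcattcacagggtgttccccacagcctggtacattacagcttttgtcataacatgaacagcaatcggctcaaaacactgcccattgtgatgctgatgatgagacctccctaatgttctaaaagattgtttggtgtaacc
KLF5 downstream start, chr13:73058755-73059004, plus strand: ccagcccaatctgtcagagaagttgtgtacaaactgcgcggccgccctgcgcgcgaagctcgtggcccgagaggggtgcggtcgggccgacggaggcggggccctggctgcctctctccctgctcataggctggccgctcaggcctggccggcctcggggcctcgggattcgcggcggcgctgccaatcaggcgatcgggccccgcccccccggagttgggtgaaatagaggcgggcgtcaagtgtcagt
KLF4, chr9:107489770-107490019, minus strand: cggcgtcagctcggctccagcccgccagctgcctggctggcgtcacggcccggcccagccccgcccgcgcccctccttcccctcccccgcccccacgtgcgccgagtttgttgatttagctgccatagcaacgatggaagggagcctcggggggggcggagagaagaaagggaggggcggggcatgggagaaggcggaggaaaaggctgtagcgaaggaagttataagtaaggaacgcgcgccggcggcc
CDX2 held 2 matches to TTTAT, starting 179 and 120 bases before its start. GATA6 held 1 match, 30 bases before its start, and KLF5 held 1 match at 193 bases before the upstream of its 2 starts. No match was found in the window of KLF4 or at the downstream start of KLF5, nor in those of CDX4 and HNF4A. Of all 35116 RefSeq promoters of the same length, 32.7% held TTTAT on either strand. The GATA core GATAA, held by 20.4% of all promoters, was present once in the CDX2 window, where it overlapped a CDX match, and in neither GATA6, KLF4 nor KLF5. CACCC, the core of the element that Krüppel-like factors bind, was held by 54.7% of all promoters and matched 2 times in GATA6, 1 time at the upstream and 2 times at the downstream start of KLF5, and not in KLF4 or CDX2. At the HNF4A starts GATAA matched 1 time each and CACCC 2 and 4 times, while CDX4 held CACCC 1 time and no GATAA. These matches describe letters only, since no binding was measured on these arrays.

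Upon homeoprotein expression, GATA6 and KLF5 were higher in induced than in non-induced cells on all 3 arrays after loess normalization, a direction that one other scaling turned, and KLF4 was lower on all 3. The 3 mean changes were modest, between 1.34-fold and 1.36-fold in size, and were past the threshold of the test shared by all probes. CDX1, CDX2, CDX4 and HNF4G did not pass it. The test was a limma intercept fit over the 3 arrays at an adjusted p of 0.05. It does not separate induction from a dye difference specific to a probe. Of 21894 probes tested 17.3% were called higher and 11.6% lower. The 2 higher and 1 lower calls among 7 members are close to those shares and are no result about the members as a set. None of the 7 probes changed by 2-fold on any array, which 1.42%, 3.05% and 1.11% of all tested probes did with Cdx1 at 12 h, Cdx1 at 24 h and Cdx2 at 24 h.

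**Figure D1:**
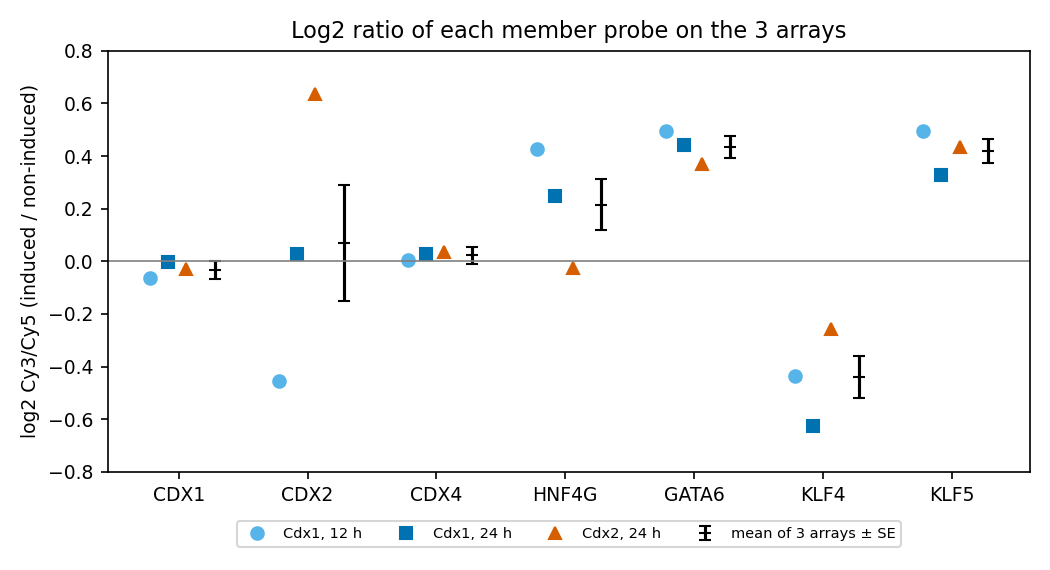
Log2 Cy3/Cy5 (induced over non-induced) of the 7 member probes on the 3 arrays, with the mean and its standard error from the limma fit (n = 3 arrays). GATA6 and KLF5 lie between 0.33 and 0.49 on every array, KLF4 lies between -0.63 and -0.26, and CDX2 spreads from -0.46 to 0.64.

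The human CDX1 probe stayed near background. Its raw Cy3 brightness in induced cells was 80.3, 89.6 and 80.6 with Cdx1 at 12 h, Cdx1 at 24 h and Cdx2 at 24 h, against Cy5 brightness of 27.9, 24.3 and 26.2 in non-induced cells. These were only 1.29 to 1.46 times the background limit in Cy3 and 1.79 to 2.27 times in Cy5. The log2 ratios were -0.06, -0.0034 and -0.03, and their mean was -0.03 ± 0.03 (SE, limma adjusted p = 0.551). The transgenes were of mouse origin and the probes are human. Probe sequences were not used here, so whether this probe can pair with mouse Cdx1 RNA was not tested and the flat value does not check the induction.

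CDX4 was also dim and flat. Its Cy3 brightness was 90.0, 93.6 and 79.5 in induced cells, against Cy5 brightness of 31.0, 25.2 and 23.1 in non-induced cells. The log2 ratios of 0.01, 0.03 and 0.04 averaged 0.02 ± 0.03 (SE, limma adjusted p = 0.659). The 95% interval of that mean reached from -0.07 to 0.11. As the offset of 50 added during background correction shrinks the ratios of such dim probes, the intervals of CDX1 and CDX4 describe shrunken ratios.

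CDX2 was the member whose arrays differed most among themselves. In induced cells its Cy3 brightness was 484 and 621 on the Cdx1 arrays (12 h, then 24 h) and 1254 on the Cdx2 array, against Cy5 brightness of 356, 267 and 369 in non-induced cells. The log2 ratios were -0.46, 0.03 and 0.64. The human CDX2 probe was thus at 0.729-fold in induced cells with Cdx1 at 12 h, at 1.02-fold with Cdx1 at 24 h and at 1.55-fold on the Cdx2 array. Their mean, 0.07 ± 0.22 (SE, limma adjusted p = 0.849), does not describe any of the 3 arrays. Whether the CDX2 probe also reads mouse Cdx2 RNA was not tested, and transgene and endogenous transcript cannot be told apart in its signal.

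The ratio of CDX2 was 0.85 higher with Cdx2 at 24 h than the mean of both Cdx1 arrays (95% interval 0.12 to 1.58, unadjusted p = 0.0329, limma fit). After adjustment over all probes this difference was not called (adjusted p = 0.964). The fit called none of 21894 probes (0%) in that comparison, 5.13% of them having an unadjusted p under 0.05, and its only measure of spread was that between the pair of Cdx1 arrays. CDX2 itself differed by 0.48 between Cdx1 at 24 h and at 12 h, each time being a single array.

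Levels of CDX2 in the 6 RNA samples were compared, each as the difference from the probe's own mean. For this the mean log2 brightness of both dyes was scaled to a common distribution over the arrays. That step leaves the ratios unchanged, so the induced minus the non-induced level on an array is its log2 ratio again. Induced Cdx2 cells stood highest at 0.93, and non-induced Cdx2 cells followed at 0.30. The 4 Cdx1 samples lay below both, with induced cells at -0.61 at 12 h and -0.22 at 24 h and non-induced cells at -0.15 at 12 h and -0.25 at 24 h. Non-induced Cdx2 cells exceeded non-induced Cdx1 cells at 24 h by 0.55, whereas the SD of that same difference over all probes above background was 0.263. The higher level of the Cdx2 samples was thus seen with DOX as well. As the Cdx2 clone was on a single array of its own, clone and array cannot be told apart in this difference. Of neighbours in this order, the 3 Cdx1 samples between -0.25 and -0.15 did not differ beyond 0.196, the SD of the difference between non-induced Cdx1 cells at 24 h and 12 h. With raw brightness centred on each channel's median, both Cdx2 samples were again highest at 0.74 in induced and 0.50 in non-induced cells, while the order among the Cdx1 samples changed.

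**Figure D2:**
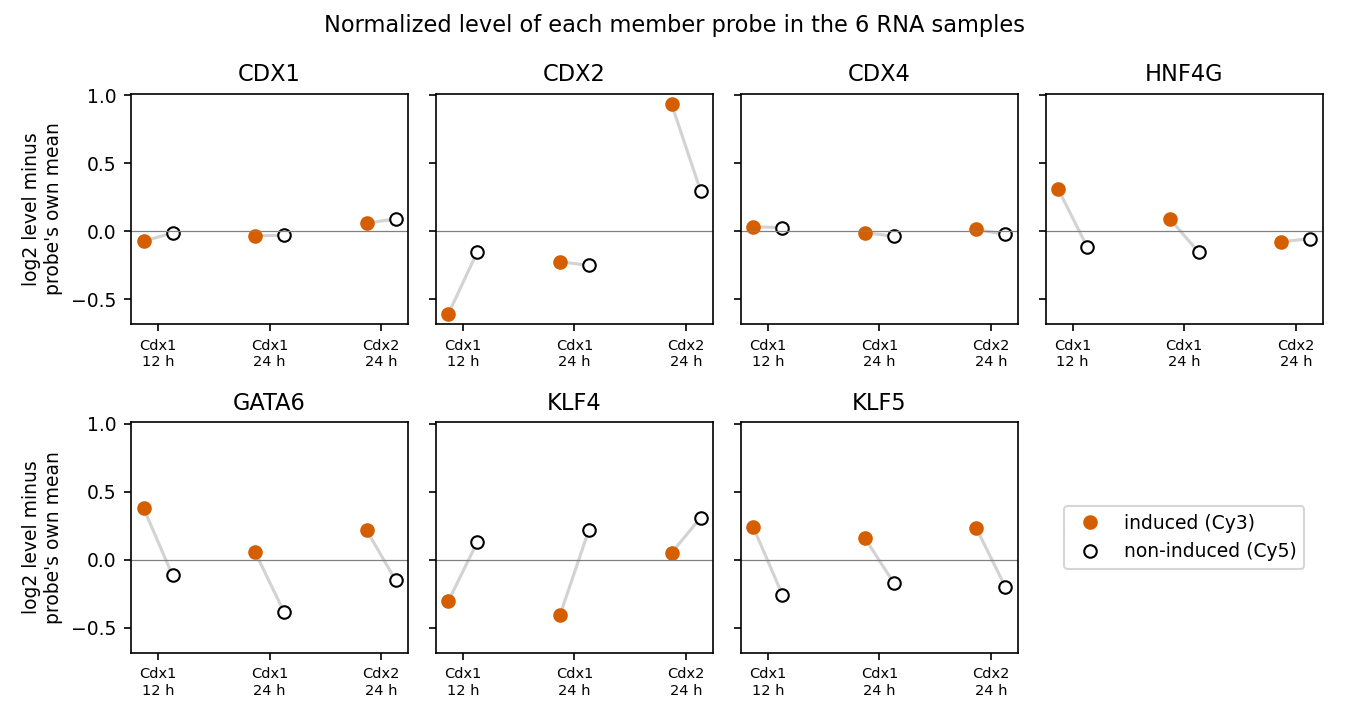
Normalized log2 level of each member probe in induced (Cy3, filled) and non-induced (Cy5, open) cells of the 3 arrays, as the difference from that probe's mean over the 6 samples. CDX2 spans 1.54 from induced Cdx1 cells at 12 h to induced Cdx2 cells, and CDX4 spans 0.07.

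CDX2 was the only member whose levels spanned at least 1 on the log2 scale, and probes of similar pattern were looked for among 2006 candidate probes with such a span. The most alike over the 6 samples were those of CD99, a cell surface glycoprotein (Pearson's r 0.947), ACSL6, an acyl-CoA synthetase (0.941), and BLVRA, biliverdin reductase A (0.932). In all 3 the levels of induced and non-induced Cdx2 cells lay above those of the Cdx1 cells. For CD99 the levels were 0.88 in induced and 0.31 in non-induced Cdx2 cells, against -0.17 in induced and -0.38 in non-induced Cdx1 cells at 24 h. With 6 samples that share clones and arrays, these correlations describe the pattern and were not tested.

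HNF4G, the nuclear receptor paralog of HNF4A, had positive ratios with Cdx1 and a ratio near 0 with Cdx2, none of which led to a call. Its Cy3 brightness was 143, 128 and 96.6 in induced cells, against Cy5 brightness of 38.9, 31.9 and 34.4 in non-induced cells. Log2 ratios were 0.43 with Cdx1 at 12 h, 0.25 with Cdx1 at 24 h and -0.02 with Cdx2 at 24 h. The mean of 0.22 ± 0.10 did not pass the test (SE, limma adjusted p = 0.172). The probe lay only 1.75 to 2.30 times above the Cy3 background limit, and the authors' log2 values, which carry no offset, were larger at 0.85, 0.59 and -0.12 on the same arrays.

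The HNF4G ratio with Cdx2 minus the mean of the Cdx1 arrays was -0.36 (95% interval -0.71 to -0.01, unadjusted p = 0.0481, limma adjusted p = 0.964). With CDX2 it made 2 of 7 members with an unadjusted p under 0.05 in this limma fit, beside 5.13% of all probes. Neither held after adjustment, and so few members give no result about them as a set. As levels, the highest HNF4G sample was induced Cdx1 at 12 h at 0.31, followed by induced Cdx1 at 24 h at 0.09. The remaining samples, induced Cdx2 cells and the 3 non-induced ones, lay between -0.16 and -0.05.

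GATA6 was bright and higher in induced cells on every array. Its Cy3 brightness was 2400, 1806 and 1828 in induced cells, against Cy5 brightness of 901, 603 and 664 in non-induced cells. The log2 ratios were 0.49 with Cdx1 at 12 h, 0.44 with Cdx1 at 24 h and 0.37 with Cdx2 at 24 h. The mean of 0.43 ± 0.04 is a 1.35-fold increase (95% interval 1.25 to 1.46, limma adjusted p = 0.00784). Each array's ratio exceeded the SD between probes of one gene on that array, which was 0.204, 0.217 and 0.174.

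As normalized levels, the 3 induced samples of GATA6 lay at 0.38, 0.06 and 0.22 and the 3 non-induced samples at -0.12, -0.38 and -0.15. With raw brightness centred on each channel's median the 2 sets overlapped, at 0.25, -0.25 and -0.01 in induced and 0.16, -0.20 and 0.06 in non-induced samples. The level at 24 h minus that at 12 h was -0.32 in induced and -0.27 in non-induced Cdx1 cells, so the ratio hardly moved. The difference between Cdx2 and the mean of the Cdx1 arrays was -0.10, with a 95% interval of -0.36 to 0.16.

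KLF5 gave bright spots and was also higher in induced cells on every array. Cy3 brightness was 4927, 4331 and 4174 in induced cells, against Cy5 brightness of 1876, 1656 and 1486 in non-induced cells. The log2 ratios of 0.49, 0.33 and 0.43 averaged 0.42 ± 0.05, a 1.34-fold increase (95% interval 1.23 to 1.46, limma adjusted p = 0.00948). Normalized levels were 0.24, 0.16 and 0.23 in the 3 induced samples and -0.26, -0.17 and -0.20 in the 3 non-induced samples. Within either normalized set no sample differed from another by more than 0.09. With raw brightness centred on each channel's median the sets overlapped, at 0.09, -0.19 and -0.01 in induced and 0.03, 0.06 and 0.02 in non-induced samples. The Cdx2 ratio differed from the mean of the Cdx1 ratios by 0.02, with a 95% interval of -0.32 to 0.36.

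The direction for GATA6 and KLF5 depended on how the dyes were scaled. Loess normalization with any of the background treatments tried kept both positive, as did the authors' own values. GATA6 averaged 0.45 and KLF5 averaged 0.40 in those values, and both were called. Where no background was removed and each array was only centred on its median, GATA6 averaged -0.14 and KLF5 averaged -0.20, and neither was called (limma adjusted p = 0.0931 and 0.0632). With normexp background correction but no loess, the means were 0.95 for GATA6 and 0.94 for KLF5. Of 18 alternatives, 17 kept each positive and 14 kept each call.

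KLF4, in contrast to KLF5, was lower in induced cells on every array. Its Cy3 brightness was 241, 229 and 273 in induced cells, against Cy5 brightness of 171, 155 and 150 in non-induced cells. The log2 ratios were -0.43 with Cdx1 at 12 h, -0.63 with Cdx1 at 24 h and -0.26 with Cdx2 at 24 h. KLF4 thus decreased by 26.0% and dropped by 35.2% at the Cdx1 times, and decreased by 16.4% with Cdx2. The mean was -0.44 ± 0.08 (SE, limma adjusted p = 0.0236). Levels were -0.30, -0.41 and 0.05 in the 3 induced samples and 0.13, 0.22 and 0.31 in the 3 non-induced samples. Induced Cdx2 cells lay within 0.09 of the lowest non-induced sample.

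The KLF4 decrease kept its sign under 18 of 18 alternatives and its call under 12. Without the Cdx1 array at 12 h the adjusted p was 0.0922, and without the Cdx1 array at 24 h it was 0.0520. The Cdx2 ratio was 0.27 above the mean of the Cdx1 ratios, a difference that was not called (95% interval -0.10 to 0.64, unadjusted p = 0.103, limma adjusted p = 0.999). At 24 h alone the Cdx2 ratio was 0.37 above the Cdx1 ratio.

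**Figure D3:**
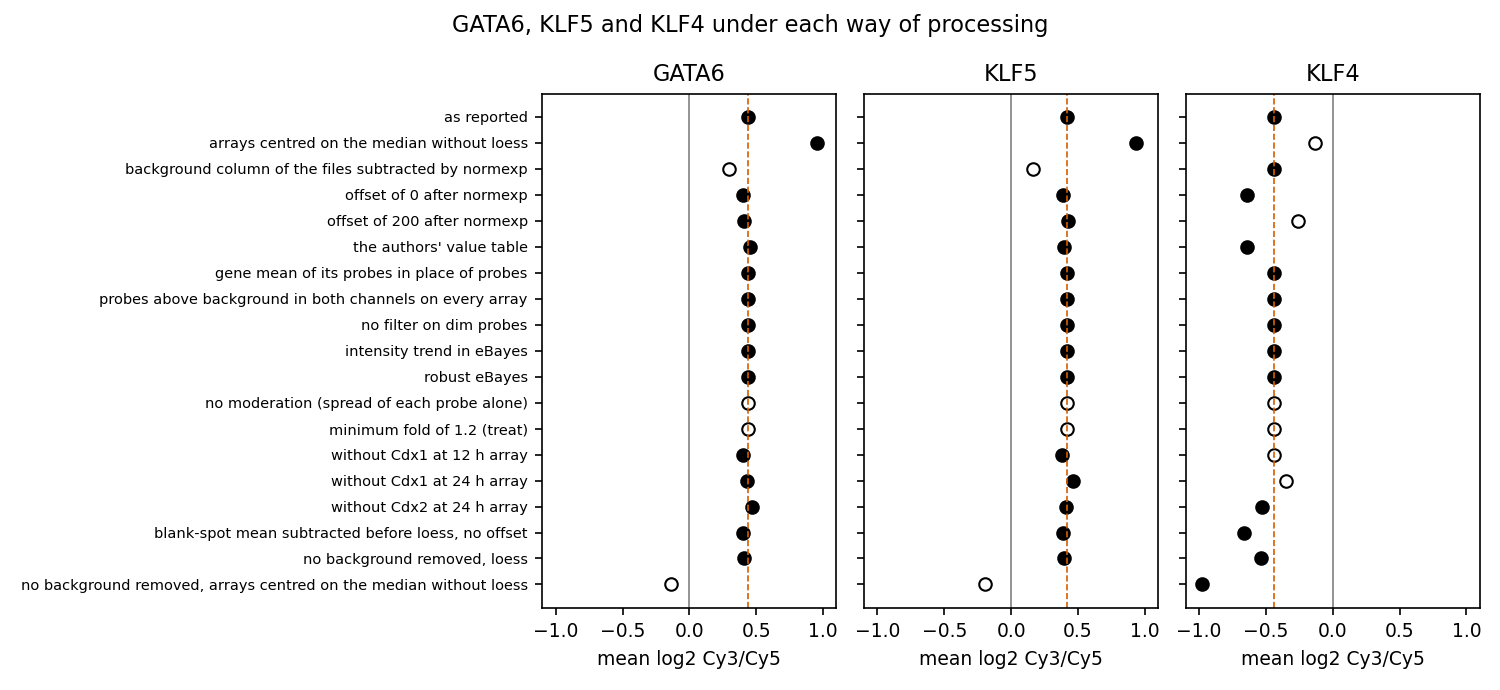
Mean log2 Cy3/Cy5 of GATA6, KLF5 and KLF4 over the arrays under each way of processing, with the reported value as a dashed line. Filled points have an adjusted p under 0.05. GATA6 and KLF5 fall below 0 only where no background was removed and no loess was applied, and KLF4 stays below 0 in every row.

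Relatives of the members were described by lists chosen with earlier results of these data known, so their counts are a description. Of 25 probes of other Krüppel-like and SP zinc finger genes, 2 were called higher and 7 lower, beside 17.3% and 11.6% of all probes, and their median log2 ratio was -0.07 against 0.00 over all probes. The lower ones included KLF10, a TGF-β-inducible repressor with both of its probes called (-1.24, -0.97 and -0.78 on the 3 arrays), KLF9 at -0.53 ± 0.11 and SP5, a Wnt target, at -0.49 ± 0.06 (SE, limma adjusted p = 0.00812, 0.0319 and 0.0114). SP4 was higher at 0.59 ± 0.08 and SP3 at 0.33 ± 0.07 (SE, limma adjusted p = 0.0131 and 0.0338), though SP3 averaged -0.17 where no background was removed and no loess applied. The list's median stayed below 0 under 18 of 18 alternatives, which was not particular to it. Among others, the nuclear receptor, crypt progenitor and CDX target lists below did the same.

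Of 12 tested probes of other GATA genes and cofactors, beside the 17.3% higher and 11.6% lower of all probes, 1 was called higher (GATA3, a T cell and epithelial factor, 0.23 ± 0.04) and 1 lower (GATA2, a haematopoietic factor, -0.21 ± 0.03), with limma adjusted p of 0.0183 and 0.0169. With an offset of 0 GATA3 averaged 1.19 and GATA2 averaged -0.39, and 11 of 18 alternatives kept each call. GATA4 and GATA5, the GATA factors that accompany GATA6 in gut endoderm, lay at 0.03 ± 0.04 and 0.04 ± 0.03 and were not called.

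Among 26 probes of HNF, FOXA and other nuclear receptor genes, 3 were called higher (11.5%) and 5 lower (19.2%), with a median of -0.09. Of all probes 17.3% were called higher and 11.6% lower. NR2F2, an orphan nuclear receptor also called COUP-TFII, was the lowest, at -1.05, -1.39 and -0.83 on the 3 arrays (mean -1.09 ± 0.12, limma adjusted p = 0.00913). NR2F6 and ESRRA, an oestrogen-related receptor of energy metabolism, were lower at -0.63 ± 0.07 and -0.57 ± 0.04, whereas NR2F1, the closest relative of NR2F2, was higher at 0.52 ± 0.09 (limma adjusted p = 0.00925, 0.0061 and 0.0210). Another NR2F6 probe, at -0.15, was not called. RXRB was higher at 0.25 ± 0.05 (limma adjusted p = 0.0291) with both of its probes called, but averaged -0.22 where no background was removed and no loess applied.

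**Figure D4:**
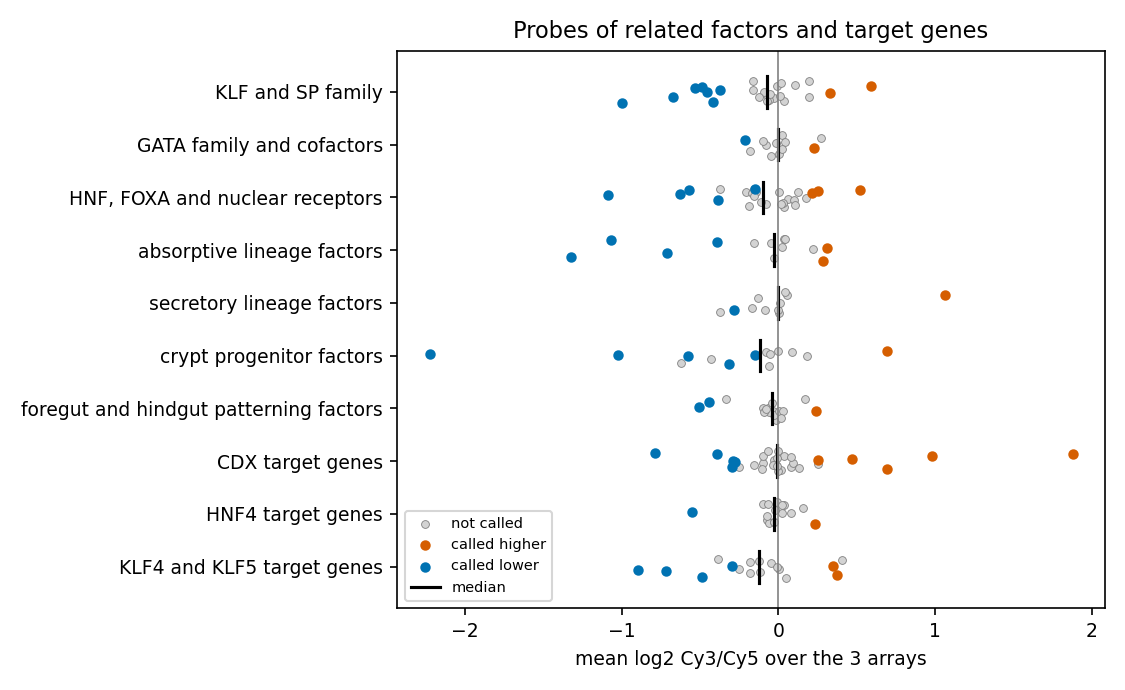
Mean log2 Cy3/Cy5 of each tested probe in lists of related factors and target genes, with probes called higher or lower in colour and the median of each list as a bar. Medians lie between -0.12 and 0.00, and the widest spread is among crypt progenitor factors and CDX target genes.

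Several other factors of intestinal lineages had larger ratios than any member. In the absorptive list 2 of 13 probes were called higher (15.4%) and 4 lower (30.8%), beside 17.3% and 11.6% of all probes. The lower ones were ID2, an inhibitor of helix-loop-helix factors (-1.32 ± 0.10), HES1, a Notch effector (-1.07 ± 0.08), ELF3, an epithelial ETS factor (-0.71 ± 0.04), and ISX, a homeobox repressor of vitamin A uptake genes (-0.39 ± 0.09). MAF and BCL6 were higher at 0.31 ± 0.05 and 0.28 ± 0.03, though BCL6 was at -0.016 with the files' own background column. The size for MAF depended on the offset, being 1.60 with an offset of 0, and 10 of 18 alternatives kept its call. In the secretory list 1 of 11 probes was called higher and 1 lower (9.09% each, beside the same shares of all probes). The higher was GFI1, a zinc finger repressor of secretory precursors, at 1.06 ± 0.09, and the lower was NEUROG3, the enteroendocrine determinant, at -0.28 ± 0.04. The limma adjusted p of these 8 genes ranged from 0.00604 to 0.0380.

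Crypt progenitor factors were called lower at 5 of 14 probes (35.7%) and higher at 1 (7.14%), beside 11.6% and 17.3% of all probes, with a median of -0.11. MYC was lower at -2.23 ± 0.16, SOX9 at -1.02 ± 0.16 and ASCL2 at -0.57 ± 0.05, while MECOM was higher at 0.69 ± 0.12 (SE, limma adjusted p between 0.00655 and 0.0200). Other MECOM probes, at 0.09 and 0.18 and above background in both dyes, were not called. With the files' own background column SOX9 was at 0.11, the other direction. The MYC value comes from 1 of its probes. The other, at -0.06 and above background in both dyes, was not called. Of 17 probes of foregut and hindgut patterning factors 1 was higher (5.88%) and 2 were lower (11.8%), beside 17.3% and 11.6% of all probes. These were HOXB13 at 0.24 ± 0.04, TBX3 at -0.51 ± 0.08 and HOXA13 at -0.44 ± 0.09 (SE, limma adjusted p of 0.0169, 0.0154 and 0.0337). Another TBX3 probe, at -0.34, was not called. HOXA13 was at 0.12 with the files' own background column.

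Genes taken as targets of these factors showed no common direction. Of 31 probes of CDX target genes 5 were higher and 5 lower (16.1% each, beside 17.3% and 11.6% of all probes), with a median of -0.01. DSC2, a desmosomal cadherin, was highest at 1.57 and 1.67 on the Cdx1 arrays and 2.39 on the Cdx2 array, followed by CLDN1, a tight junction protein (mean 0.98 ± 0.13), and KRT20, a keratin of differentiated enterocytes (0.70 ± 0.08). Another CLDN1 probe, not above background in both dyes on every array, was at -0.03 and not called. VIL1, the brush border protein villin (-0.79 ± 0.16), ISX and ALPI, intestinal alkaline phosphatase (-0.30 ± 0.04), were lower, though ALPI was at 0.13 with normexp and no loess. Of 16 probes of HNF4 target genes 1 was higher and 1 lower (6.25% each, beside the same shares of all probes). These were TF, transferrin, at 0.23 ± 0.06 and ACSL5, an enterocyte acyl-CoA synthetase, at -0.55 ± 0.10. With an offset of 0 TF averaged 1.09, and 8 of 18 alternatives kept its call. Of 17 probes of KLF4 and KLF5 target genes 2 were higher (11.8%) and 4 lower (23.5%), beside 17.3% and 11.6% of all probes. The higher ones were both of CCNB1 (cyclin B1, 1 at 0.38 ± 0.05, and at -0.27 where no background was removed and no loess applied). Among the lower ones were KRT19 (-0.89 ± 0.11), ODC1 (-0.71 ± 0.07) and CCNE1 (-0.49 ± 0.06). Another CCNE1 probe, at -0.18, was not called. The limma adjusted p of the named target genes, at their called probes, ranged from 0.00784 to 0.0467.

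The labelled cell type was checked against its markers. All 9 probes of 8 epithelial marker genes were above background in both dyes on every array, as were 20314 of all 24460 gene probes. Of 14 probes of stromal, immune and endothelial markers 4 passed that same limit, while 8 were below background and not tested. Gastric and hepatic markers passed it at 8 of 10 probes, so passing this limit does not by itself identify the cell type. Of the epithelial probes 2 were called higher (22.2%) and 5 lower (55.6%), beside 17.3% and 11.6% of all probes. The lower ones were KRT18 (-1.87), KRT19 (-0.89), VIL1 (-0.79), CLDN7 (-0.52) and CDH1 (-0.43), and the higher ones EPCAM (0.36) and KRT20 (0.70). Another EPCAM probe, at 0.10 and above background in both dyes, was not called. The median of the 9 epithelial probes was -0.43, and -1.01 to 0.01 over the alternatives. Of those 6 stromal, immune and endothelial probes that were tested, 1 was called (16.7%), the matrix gene DCN at -0.15 ± 0.03. The 8 tested probes of gastric and hepatic markers had limma adjusted p of 0.0796 (AFP) and above.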

How the data were processed

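Total RNA of DLD1-TetOff cells was amplified to aRNA, coupled to Cy dyes and hybridised to 3D-Gene arrays per the labels. The deposited scanner files hold spot intensity in Cy5 and Cy3 with no background subtracted. A second deposited table gives log2 values of the authors, which matched Cy3 over Cy5 with the mean of blank spots taken off and each array's median set to 0 (differences up to 0.00641). Background was corrected by normexp, using no local background and an offset of 50, and loess was run within arrays (span 0.3, control spots at weight 0) in limma 3.58.1 under R 4.3.3. Background was the trimmed mean of 2680 blank spots plus 2 SD, and probes above it in at least 1 channel on every array were tested.

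Shared change was an intercept fit, and Cdx2 against Cdx1 a contrast with the mean of both Cdx1 arrays, both moderated, two-sided and adjusted by Benjamini-Hochberg over 21894 probes. Errors are standard errors over n = 3 arrays, with both Cdx1 arrays treated as independent of each other. The number of arrays limits the precision. Levels used Aquantile scaling of the mean log2 brightness of both dyes, which leaves the ratio on each array unchanged. Platform symbols were updated through RefSeq (GRCh38.p14) for 2899 probes, 17238 being current. The arrays name no build, so coordinates are given for RefSeq promoters only. The fits were tested on simulated data. Members and lists were chosen with earlier results of these data known. Named genes are all members and, of each list, at most the 3 called genes with the highest and the 3 with the lowest mean. GATA4, GATA5, DCN and the KLF10, RXRB, MYC and CCNB1 probe comments were chosen after values were seen. Alternatives varied the background, offset, normalization, filter, moderation and arrays used.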

Additional observations from a re-analysis of the deposited data

Results flagged for a closer look

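The CDX2 ratio differed in sign between the times of Cdx1 induction, at 0.027 at 24 h and -0.46 at 12 h. HNF4G had a ratio of -0.024 with Cdx2 at 24 h, against 0.43 and 0.25 with Cdx1 at 12 h and 24 h, and thus opposite signs in the 2 clones. With 1 array at each time and clone these sign changes were not tested. Both small values, 0.027 and -0.024, are within the SD between probes of one gene on their arrays.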

How the results depend on the processing

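Induced and non-induced cells were paired within each array, so the ratios carry the pairing and, with 1 array a group, no further block was fitted. The shared change called 6331 probes as reported. Counted anew under each alternative, the calls were 12838 with median centring in place of loess, 700 with the files' background column, 3941 with an offset of 200, 5 without moderation, 1183 against a minimum fold of 1.2, and 2972 to 4022 with 1 array left out. They were 15885 with neither background removal nor loess, an alternative chosen after seeing the data like the other 2 on background. Of the 3 members called, 1 was called with the background column or with neither background removal nor loess, and 0 without moderation or against the minimum fold. GATA6 was at 0.29 with the background column (adjusted p = 0.165) and -0.14 with neither removal nor loess; it kept 0.43 without moderation (0.134) and against the minimum fold (0.0807). KLF5 was at 0.16 (0.104) and -0.20 in the first 2 cases and kept 0.42 in the others (0.136 and 0.129). KLF4 was at -0.13 with median centring (0.220), -0.26 with the offset of 200 (0.0539), -0.53 to -0.35 with 1 array left out, and -0.44 without moderation (0.177) or against the minimum fold (0.303).

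Signs turned for ALPI (0.13) and CDX4 (-0.045, and -0.021 for Cdx2 against Cdx1) with median centring. With the background column they turned for CDX4 (-0.045), BCL6 (-0.016), SOX9 (0.11), HOXA13 (0.12), and Cdx2 against Cdx1 for CDX1 (-0.063) and GATA6 (0.27). CDX2 averaged -0.21 to 0.33 with 1 array left out, -0.0034 with the blank-spot mean subtracted, and -0.48 with neither background removal nor loess. In that last setting CDX1 (0.054), SP3 (-0.17), RXRB (-0.22) and CCNB1 (-0.27) also turned. The CDX1 difference of Cdx2 against Cdx1 was -0.028 in the authors' values, -0.0050 with loess but no background removal, and -0.092 with neither. The cause was not tested. No probe was called for Cdx2 against Cdx1 under any alternative run, with 1123 at an unadjusted p under 0.05 as reported. With 1 array a group and a dim signal for CDX1, CDX4 and HNF4G, small changes of these genes were not detectable.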
